A study of Mus musculus with 10 samples.

Results

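The 4 Hox gene clusters of the mouse were described here through the open chromatin and the protein footprints that lay in them in 3T3-L1 cells, a clonal mouse fibroblast line committed to the fat cell lineage, 4 h after the start of differentiation. Members were all DNase I hypersensitive (DHS) sites that overlapped 1 of 4 fixed windows of the mm9 genome by 1 bp or more, together with the footprints inside them. The windows were Hoxa on chromosome 6 from 52055000 to 52260000, Hoxb on chromosome 11 from 96030000 to 96280000, Hoxc on chromosome 15 from 102700000 to 102910000 and Hoxd on chromosome 2 from 74450000 to 74660000. They held 58 of the 129028 sites of the list and 354 of its 329076 footprints. A DHS site is a stretch that DNase I cuts often because it is little covered by nucleosomes, and a footprint is a short stretch inside a site with few cuts, as left by a bound protein.

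The labels give the cells no genetic change. Differentiation was started after confluence with insulin at 1 µg/mL, the glucocorticoid dexamethasone at 1 µM, 0.5 mM of 3-isobutyl-1-methylxantine, which raises cyclic AMP, and serum (FCS) at 10%. The DNase group had 2 samples, both further sequencing of 1 library, and the authors called sites and footprints on their pooled reads together with earlier reads of that library. There was thus 1 list of each kind, with no replicate, no untreated control and no read depth behind any site, so values are given as descriptions of this library, without p-values. The 8 RNA-seq samples of the study were not analysed here. A cell line that is 1 clone cannot show how Hox chromatin varies between fat depots or animals.

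Hox genes encode homeodomain transcription factors that give cells along the head-to-tail axis their identity. Within a cluster the genes lie in one direction, and those at the 3′ end (low numbers, such as Hoxa2 and Hoxb1) are used early and toward the head, those at the 5′ end (high numbers, up to group 13) late and toward the tail. The clusters arose by duplication, so genes with the same number in different clusters are related copies. Polycomb complexes keep unused Hox genes silent, and fibroblasts and fat cells in culture keep a Hox pattern that reflects their place of origin in the body. All 38 genes on the member list were found in the RefSeq annotation of GRCm38, from which only their order was taken. With rising coordinate the order ran from Hoxa2 to Hoxa13, but from Hoxb13 to Hoxb1, from Hoxc13 to Hoxc4 and from Hoxd13 to Hoxd1. Hoxa thus starts with its 3′ end, and the other 3 clusters with their 5′ end. The builds differ, so no site was assigned to a gene, and the order was taken to hold in mm9.

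Besides their Hox genes the clusters share small RNA genes at like places. The mature miRNAs are shown with their seed (bases 2 to 8) in capitals, because they let places in different clusters be matched (RefSeq, GRCm38.p6). In the RefSeq order Mir10a was next to Hoxb4 and Mir10b next to Hoxd4, while Mir196b lay between Hoxa9 and Hoxa10, Mir196a-1 next to Hoxb9 and Mir196a-2 between Hoxc9 and Hoxc10.
mmu-miR-10a-5p: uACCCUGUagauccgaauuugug
mmu-miR-10b-5p: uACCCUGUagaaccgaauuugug
mmu-miR-196a-5p: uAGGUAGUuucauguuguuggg
mmu-miR-196b-5p: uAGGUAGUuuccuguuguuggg
The copies from Hoxb and Hoxd share the seed ACCCUGU and differ by 1 substitution, U12A (counted from the 5′ end, the miR-10a base first). Both Mir196a genes give the same mature sequence, which differs from that of Mir196b by A12C and shares its seed AGGUAGU.

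By median, the listed promoters of member genes were richer in CpG than promoters in general. The RefSeq promoter table (GRCm38.p6) had 24 windows of 300 bases for 22 of the member genes, from 250 bases before to 50 after the transcript start. They held a median of 14.5 CpG, from 4 to 45, and a median of 57.7% G and C. Hoxa gave 10 windows (median 17.5 CpG), Hoxd 10 (20), Hoxb 3 (13) and Hoxc 1 (9), so Hoxb and Hoxc were little covered. Over all 32851 promoters of the table the medians were 7 CpG and 52.7%. The most, 45, stood in the promoter of Hoxa13 and the next, 37, in that of Hoxd13, a pair of group 13 genes needed for the digits and the lower urinary and genital tract. The related genes Hoxb4, Hoxc4 and Hoxd4 are shown with each CG in capitals, because group 4 was the group with windows from the most clusters. They code for factors of the hindbrain and neck region and lie on the plus strand of chromosomes 11, 15 and 2.
Hoxb4: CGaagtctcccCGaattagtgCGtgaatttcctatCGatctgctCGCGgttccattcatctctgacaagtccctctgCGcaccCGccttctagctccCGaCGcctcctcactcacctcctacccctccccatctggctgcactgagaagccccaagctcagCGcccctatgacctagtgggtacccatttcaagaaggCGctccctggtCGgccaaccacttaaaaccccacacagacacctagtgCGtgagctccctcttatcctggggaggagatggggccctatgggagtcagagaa
Hoxc4: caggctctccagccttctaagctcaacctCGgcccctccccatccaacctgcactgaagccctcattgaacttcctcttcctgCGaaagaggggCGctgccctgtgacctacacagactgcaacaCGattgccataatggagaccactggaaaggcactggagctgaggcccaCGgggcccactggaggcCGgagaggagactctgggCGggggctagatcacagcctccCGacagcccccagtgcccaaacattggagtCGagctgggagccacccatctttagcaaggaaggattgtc
Hoxd4: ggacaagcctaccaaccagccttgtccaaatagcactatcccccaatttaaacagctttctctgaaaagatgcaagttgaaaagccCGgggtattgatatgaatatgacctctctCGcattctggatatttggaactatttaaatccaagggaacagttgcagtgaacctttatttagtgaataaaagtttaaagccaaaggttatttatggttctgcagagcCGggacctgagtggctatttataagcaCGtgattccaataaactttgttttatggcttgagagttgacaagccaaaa
The count of CpG was 14 for Hoxb4, 9 for Hoxc4 and 4 for Hoxd4. These are sequences of the reference, and whether a DHS site covered them was not tested.

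Open chromatin differed between the clusters, with the most in Hoxa and the least in Hoxc. Hoxa held 20 sites, or 9.76 per 100 kb, Hoxd 14 (6.67 per 100 kb), Hoxb 16 (6.4 per 100 kb) and Hoxc 8 (3.81 per 100 kb). For comparison, bins of 200 kb over the genome had a median of 5 sites per 100 kb, a 90th percentile of 8 and a 95th of 9.5. Sites covered 11.4% of the Hoxa window, above the 99th percentile of the bins (9.75%). Coverage was 5.50% in Hoxd, 4.16% in Hoxb and 2.23% in Hoxc, against a bin median of 2.73%. Hoxc was the one window below the bin median in both number and coverage.

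Sites were also widest in Hoxa. The median width was 703 bp in Hoxa, 675 bp in Hoxd, 604.5 bp in Hoxc and 507.5 bp in Hoxb, against 532 bp over all sites. The range was 257 to 5758 bp in Hoxa, 254 to 2634 bp in Hoxb, 262 to 894 bp in Hoxc and 495 to 2023 bp in Hoxd. All 4 ranges overlapped. The sites of 4517 and 5758 bp, both in Hoxa, were wider than any of the other windows.

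The Hoxa cluster carried most of the footprints. It held 238 of the 354 (mean 11.9 ± 15.5 per site, SD over 20 sites, median 6.5). Hoxd held 53 (3.79 ± 3.95 over 14 sites, median 2.5), Hoxb 36 (2.25 ± 3.53 over 16 sites, median 0.5) and Hoxc 27 (3.38 ± 4.44 over 8 sites, median 1.5). Over all sites the mean was 2.55 and the median 0. These SDs describe how sites of one window differ and are not an error of the window's value. Neighbouring sites come from 1 library and are not replicates.

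Of the 20 Hoxa sites, 19 held a footprint (95%, Wilson 95% interval 76.4 to 99.1%), where 45.4% of all listed sites did. The shares were 9 of 14 in Hoxd (64.3%, 38.8 to 83.7%), 5 of 8 in Hoxc (62.5%, 30.6 to 86.3%) and 8 of 16 in Hoxb (50%, 28.0 to 72.0%). The intervals cover counting error only and treat sites as independent. Those of Hoxa and Hoxb did not overlap, and every other pair did. In Hoxb the share was below that of its own chromosome, 60.1% of 6074 sites, a value inside its interval. Hoxb sites were also narrower, with a median of 507.5 bp against 608.5 bp on chromosome 11. Hoxa stood above chromosome 6 (45.3% of 10151), Hoxc above chromosome 15 (45.0%) and Hoxd above chromosome 2 (48.4%). Against the sites in the 200 kb on each side, both sides pooled, only Hoxa stood higher (73.7% there). The other pooled flanks had 60% around Hoxb, 89.3% around Hoxc and 65.2% around Hoxd, above those windows, in Hoxd by little. By side, Hoxa stood above both flanks (80% before it, 66.7% after it) and Hoxc below both (76.9% and 100%). Hoxb stood below the flank before it (70.6%) and above the 3 sites after it (0%). Hoxd stood above the flank before it (30%) and below the one after it (92.3%). No test between windows was made, since each is 1 stretch of DNA in 1 library.

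Sites with 10 or more footprints were 8 of 20 in Hoxa, 2 of 14 in Hoxd, 1 of 16 in Hoxb and 1 of 8 in Hoxc, or 12 of 58 together (20.7%), with 7.88% over the whole list. The 12 sites held 65.3% of the footprints of the 4 windows. The 17 sites without a footprint were narrower by median, 254 to 625 bp with a median of 410 bp, and the 41 with at least 1 ran from 378 to 5758 bp with a median of 724 bp. In Hoxd, however, the 5 sites without one had a median of 574 bp, above the 532 bp of all listed sites.

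**Figure D1:**
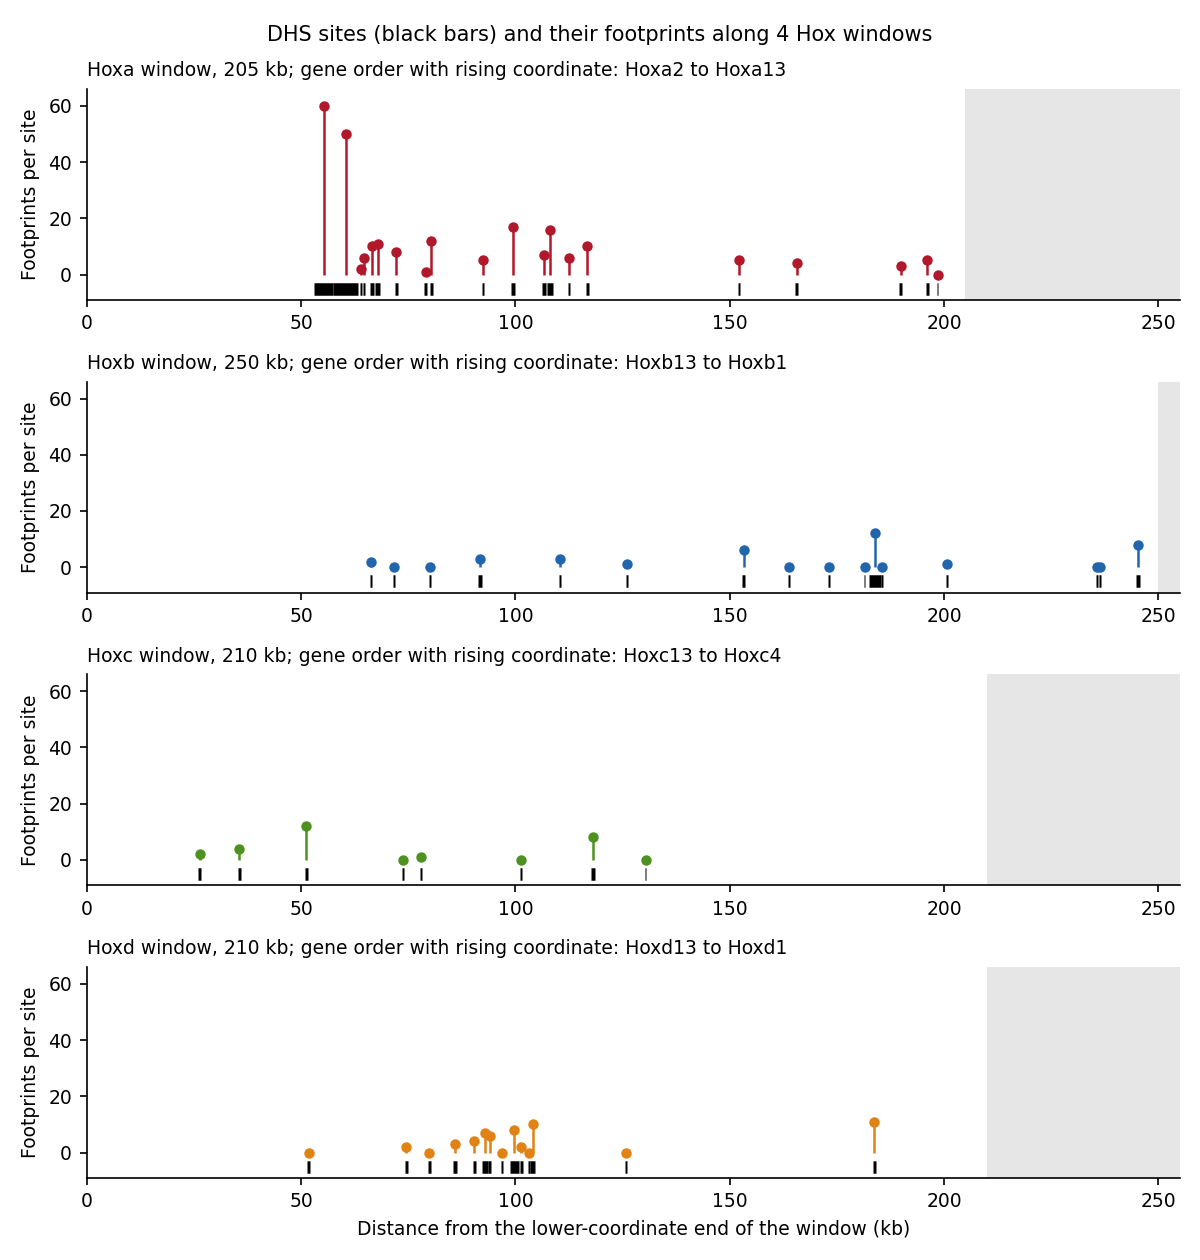
Each panel shows 1 Hox window, with the distance from its lower-coordinate end in kb on the x axis, the extent of each DHS site as a black bar and its number of footprints as a point on a stem; grey marks the space beyond a window's end. In Hoxa the 15 sites between 53.0 and 117.2 kb hold 221 of 238 footprints. In Hoxd the site with most footprints (11) stands alone at 183.4 kb, and Hoxc has no site in its last 79.5 kb.

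A pair of very wide sites made up a large part of the Hoxa signal. The first lay on chromosome 6 from 52107997 to 52112513 (4517 bp) and held 60 footprints, rank 34 among all sites of the list. The next began 32 bp further on, from 52112546 to 52118303 (5758 bp), and held 50. It was the widest of the 10151 sites on chromosome 6 and the 26th widest in the list, and its neighbour was the fourth widest on the chromosome. Together they spanned 10307 bp and held 46.2% of the Hoxa footprints in 44.0% of the Hoxa site sequence. The third site by footprints, from 52154007 to 52154979, had 17 in 973 bp. That was 17.5 per kb, the densest of the 58 sites.

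Wide sites hold more footprints everywhere in the list, so each member was set beside sites of its width. For the 4517 bp site the 120 sites nearest in width had a median of 45 footprints (interquartile range 25.75 to 60), and for the 5758 bp site the 50 nearest had a median of 56.5 (42.25 to 94). The observed 60 and 50 lay within or at the edge of these ranges. The other 18 Hoxa sites held 128 footprints, 1.97 times the 65.1 predicted by the mean of their width class (50 classes of equal number) and 1.99 times the mean of the sites nearest in width. For all 20 sites the ratio was 2.26 by classes and 1.30 by nearest width. The class value is too high, since the widest class puts the Hoxa pair together with much narrower sites, such as the Hoxd site of 2023 bp. The nearest sites of the pair in turn ran from 3864 and 4694 bp up to 13152 bp, so the 1.30 is not closely matched in width either. Their means, 49.2 and 69.4 footprints, stood above their medians of 45 and 56.5. A ratio above 1 was not particular to the Hoxa window, since the 200 kb on each side of it together gave 1.57 by classes.

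In the other clusters the ratio to the width class was 1.55 for Hoxc, 0.88 for Hoxb and 0.826 for Hoxd, and by nearest width it was 1.53, 0.873 and 0.874. These directions rested on the 2 widest sites of each window. Without them the ratio to the width class was 0.954 in Hoxc, 1.09 in Hoxb and 1.14 in Hoxd, on the other side of 1 in all 3. More footprints than the mean of the sites nearest in width were found in 17 of 20 Hoxa sites, 4 of 8 Hoxc, 5 of 14 Hoxd and 4 of 16 Hoxb sites, where 30.0% of all sites did so. In the list's quintile of 601 to 793 bp, all 8 Hoxa sites held a footprint, 5.25 on average, against 73.2% and 2.65 over the list. In that quintile 2 of 2 Hoxc, 3 of 4 Hoxd and 1 of 2 Hoxb sites held one, with a mean of 3 in each of these windows. In the quintile of 471 to 600 bp, 1 of 5 Hoxd sites and 3 of 4 Hoxb sites held one, against 39.3%.

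**Figure D2:**
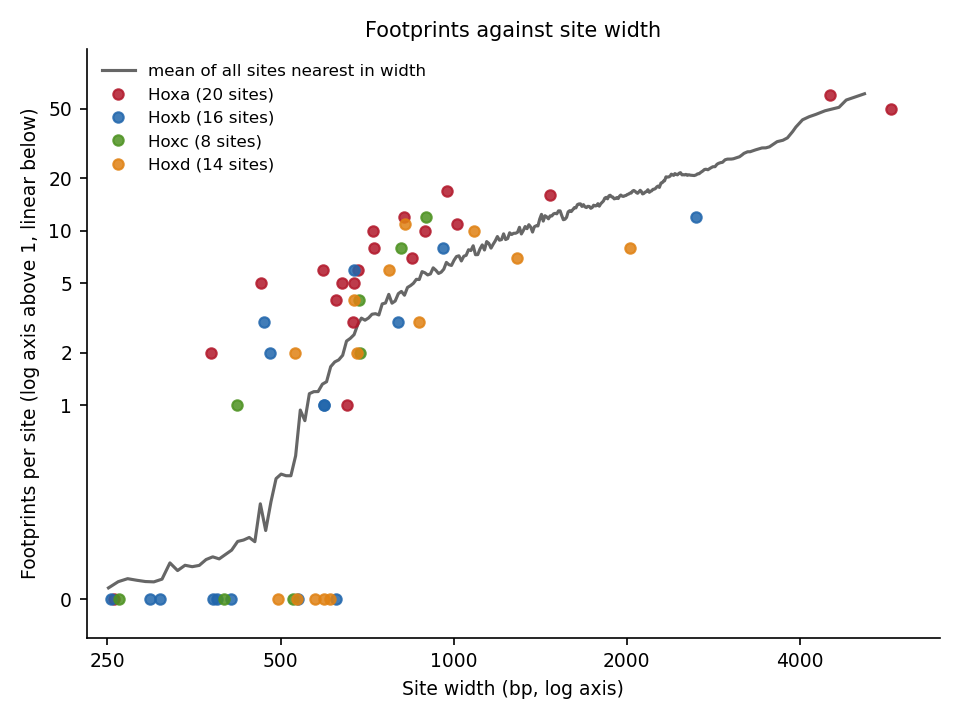
Footprints per site (y axis, log above 1 and linear below) against site width in bp (x axis, log) for the 58 members, with the mean of all sites nearest in width as a grey line. Of the Hoxa points 17 of 20 stand above the line, and the site of 5758 bp, with 50 footprints, stands below it.

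Along Hoxa the signal was concentrated toward the Hoxa2 end of the gene order. The first 53.0 kb of the window had no site. Then 15 sites followed within 64.2 kb, from 52107997 to 52172163, and covered 32.2% of that stretch. All 15 held a footprint, 221 together, or 92.9% of the window's. A stretch of 34.8 kb without a site came next, from 52172164 to 52206949. Toward the Hoxa13 end lay 5 sites of 257 to 670 bp with 17 footprints. They held 5, 4, 3, 5 and 0 footprints in order of coordinate, whereas the median of the 15 was 10. The shortest stretch with 50% of the window's footprints was 12.9 kb long, 6.30% of the window.

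Hoxd showed a compact group of sites in the middle of its window. Of its 14 sites, 10 had their midpoint in the third of 5 equal parts, and that part held 75.5% of the footprints. From 74540124 to 74544411 lay 3 sites of 672, 1290 and 771 bp with 4, 7 and 6 footprints. After a site of 495 bp without a footprint, the stretch from 74548787 to 74554590 held 4 of 2023, 678, 533 and 1084 bp with 8, 2, 0 and 10. The first of those 4 was the widest in the Hoxd window and held 8 footprints, 0.484 times the mean of the sites nearest in width. A stretch of 57.2 kb without a site, from 74576169 to 74633358, was the longest between neighbouring sites in any of the 4 windows. Beyond it, toward the Hoxd1 end, stood a single site from 74633359 to 74634182. It was 824 bp wide and had 11 footprints, the most of the Hoxd sites and 2.33 times the mean of those nearest in width.

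Most Hoxb sites held few footprints. The first 66.1 kb of the window, from 96030001 to 96096119, had no site, which was the longest such stretch in Hoxb and 26.4% of its length. Their richest site, from 96212560 to 96215193, was 2634 bp wide and had 12 footprints, 0.571 times the mean of its neighbours in width. A site of 535 bp without a footprint began 10 bp after it. The next by number were the site from 96274689 to 96275646 (958 bp, 8 footprints), the last of the window before its upper edge, and the one from 96182899 to 96183570 (672 bp, 6 footprints). The remaining 13 sites held 0 to 3 footprints, and 8 of them none. Of the 36 footprints 18 lay in the fourth of 5 equal parts. The longest stretch between 2 Hoxb sites was 34.55 kb, from 96231009 to 96265558.

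Hoxc had the fewest sites, all in the first 130.5 kb of the window from the Hoxc13 side. Its 3 richest were at 102750834 to 102751727 (894 bp, the widest, with 12 footprints), 102817672 to 102818481 (810 bp, 8) and 102735234 to 102735916 (683 bp, 4). The other 5 held 2, 1, 0, 0 and 0. No site was listed from 102830514 to 102910000, the last 79.5 kb toward the Hoxc4 end and 37.9% of the window. Whether the list leaves out regions is not known, so this says only that it has no entry there. Neighbouring sites of Hoxc stood a median of 14917 bp apart, against 9028 bp in Hoxb, 3494 bp in Hoxa, 2249 bp in Hoxd and 10269 bp over the list.

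Gene order and signal can be set side by side across the clusters. By their midpoint, 76.5% of the Hoxa footprints lay in the lower-coordinate part of the window up to its centre, which is the Hoxa2 side. In Hoxc (70.4%) and Hoxd (79.2%) most lay on the same side by coordinate, which there is the side of the group 13 genes. In Hoxb 22.2% did, so most lay on the Hoxb1 side. By this count the richer side was the 3′ side in Hoxa and Hoxb and the 5′ side in Hoxc and Hoxd. The mean footprint position gave the same side in Hoxa (81.3 kb, centre 102.5 kb), Hoxb (170.8 kb, centre 125 kb) and Hoxc (67.9 kb, centre 105 kb). In Hoxd it gave the other side, at 114.0 kb with the centre at 105 kb, since 11 footprints lay in the 1 site at 183.4 kb. Few sites set the sides of the other windows too. Of the 182 Hoxa footprints on its richer side, 110 lay in the 2 widest sites. In Hoxb 2 sites held 12 and 8 of 28, and in Hoxc 1 site held 12 of 19. By number of sites Hoxa was nearly even, with 11 on the Hoxa2 side and 9 on the other. Their mean position, 107.4 kb, lay on the Hoxa13 side. Where each gene lies within its mm9 window was not analysed here, and these shares depend on where the windows were drawn.

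The surroundings of the windows, 200 kb on each side, gave a local comparison. Hoxa had 9.76 sites per 100 kb against 5 before and 4.5 after it, 2.05 times the density of both flanks together. Its 116.1 footprints per 100 kb stood against 33.5 and 14. The ratio to the width class was 1.79 before Hoxa and 1.21 after it. The window without its 2 widest sites had 1.97. In the nearest 100 kb before Hoxa the ratio was 2.16, and all 6 sites held a footprint. They had 11.1 footprints per kb of site, against 10.2 in the window. The 2 sites in the 100 kb after Hoxa held none. Around Hoxb, Hoxc and Hoxd the 200 kb flanks together also gave ratios above 1, each above its window's, in Hoxc by little. Hoxc was poorer than its surroundings, with 0.544 times their site density. The 15 sites in the 200 kb after it all held a footprint and had 115 together, against 27 in the Hoxc window. In Hoxd the ratio of site density was 1.16. Hoxb, at 1.28, had unequal flanks, 8.5 sites per 100 kb before the window and 1.5 after it. Those 3 sites beyond its Hoxb1 end held no footprint.

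**Figure D3:**
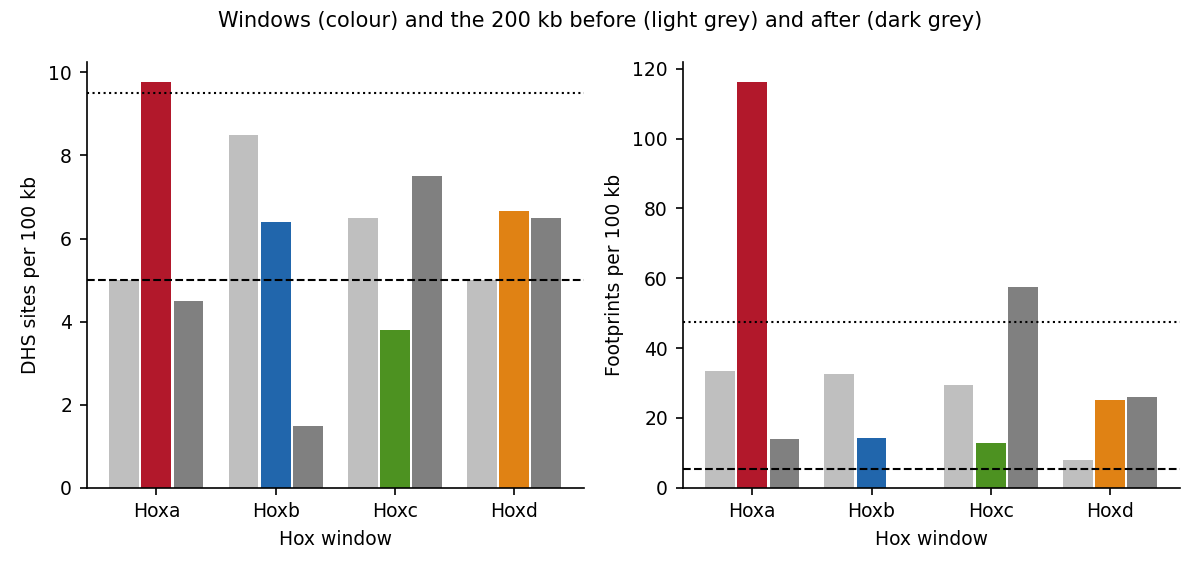
DHS sites per 100 kb (left) and footprints per 100 kb (right) in each Hox window (coloured bars) and in the 200 kb before it (light grey) and after it (dark grey), with the median (dashed) and the 95th percentile (dotted) of 200 kb bins over the genome. Hoxa stands above both flanks and the 95th percentile in both measures, and Hoxc stands below both flanks.

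Sites nearest the window edges were as follows. At the lower edge of Hoxa the site just outside, 1.84 kb before the edge, had 15 footprints in 1151 bp, while the first inside, 53.0 kb after it, had 60. The Hoxb site just outside the upper edge, 8.89 kb beyond, had none, and the last inside had 8. For Hoxc the last inside had none and the first beyond the upper edge, at 7.56 kb, had 3. For Hoxd the last inside had 11 and the first outside, at 3.41 kb, had 6. At the other edges the sites just outside had no footprint.

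Footprint scores lay close to the list in Hoxa, Hoxc and Hoxd and were weaker in Hoxb. The score that the authors give each footprint is negative. Its scale is unknown, and a lower score was taken to mean a stronger footprint. The median was -4.53 in Hoxa, -4.33 in Hoxd, -4.21 in Hoxc and -4.09 in Hoxb, and -4.38 over all finite scores. At or below that overall median were 128 of 238 footprints in Hoxa (53.8%), 24 of 53 in Hoxd (45.3%), 13 of 27 in Hoxc (48.1%) and 12 of 36 in Hoxb (33.3%), with 49.9% over the list. Together this was 177 of 354, of which Hoxa gave most.

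The strongest footprint of each window had a score of -10.7 in Hoxa, -9.17 in Hoxd, -8.96 in Hoxb and -8.74 in Hoxc, all far from the strongest finite score of the list, -107.7. In Hoxa it covered 52111248 to 52111274, and the next 2 by score (-10.4 and -9.57) lay before it, from 52111119 on, in the same site of 60 footprints. The strongest in Hoxb, from 96275003 to 96275020, belonged to the site of 8 footprints near the window's end, as did the next 2. In Hoxc, 102751355 to 102751383 lay in the site with 12. The Hoxd footprint from 74553974 to 74554000 lay in a site with 10, and the site with 11 held none of the 3 strongest. The widest site of Hoxb, with 12 footprints, reached a best score of -4.70 only.

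**Figure D4:**
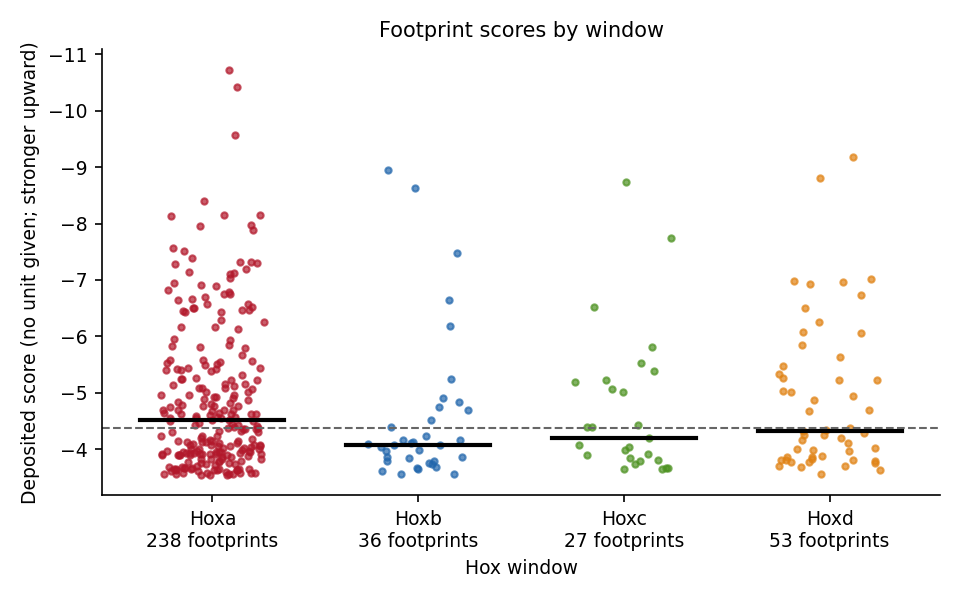
Deposited score of each footprint (y axis, no unit given, stronger upward) in the 4 Hox windows, with the window's median as a black bar and the median of all finite scores, -4.38, as a dashed line. Points are spread sideways for visibility. The medians lie between -4.53 and -4.09, and the 3 strongest points are in Hoxa.

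Footprint widths differed between windows. The median was 18 bp in Hoxa, 16 bp in Hoxc and 22 bp in Hoxb and Hoxd, against 21 bp over the list. Footprints of 8 or 9 bp, the shortest lengths listed, made up 32 of 238 in Hoxa (13.4%), 5 of 27 in Hoxc (18.5%), 5 of 53 in Hoxd (9.43%) and 1 of 36 in Hoxb (2.78%), against 9.65% over the list. At the limit of 30 bp were 8.82%, 3.70%, 11.3% and 13.9% in the same order, against 11.6%. Footprints covered 19.4% of the site sequence in Hoxa, 10.1% in Hoxc, 9.49% in Hoxd and 7.51% in Hoxb, and 8.19% over the list.

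Within sites, the footprints of the Hoxa pair of wide sites lay further out than the list's. On a scale from 0 at the middle of a site to 1 at its edge, footprints had a mean position of 0.356 in Hoxa, 0.275 in Hoxb, 0.244 in Hoxd and 0.205 in Hoxc, against 0.292 over the list. In the widest Hoxa pair the position was 0.491 for the site with 60 footprints and 0.393 for the one with 50. The 128 footprints of the other Hoxa sites had a mean of 0.278, below that of the list. The list's value was not matched for width. Other wide members also stood above it, namely the Hoxb site of 2634 bp (0.399), the Hoxd site of 2023 bp (0.323) and the Hoxa site of 1471 bp (0.418). The Hoxd sites of 1290 bp (0.279) and 1084 bp (0.245) and the Hoxa site of 1015 bp (0.267) stood below it. Some narrower members also stood above it. Neighbouring footprints of a site were a median of 21 bp apart in Hoxa, 12.5 bp in Hoxc, 26 bp in Hoxd and 35 bp in Hoxb, against 20 bp over the list. Without the 2 widest sites of each window these medians were 15, 34, 19 and 30 bp, the Hoxc value over 4 distances.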

How the data were processed

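Nuclei were digested with DNase I, and DNA of small size was taken from a sucrose gradient and sequenced, per the labels' protocols. Coordinates are on mm9, and the tool named for both DNase samples is HOMER, per the submitters' processing notes. The programs that called sites and footprints, with their versions, were not given in the sources used here. Of the 2 lists, the deposited site list holds no other values than chromosome, start and end. The deposited footprint list adds a column that its header calls a p-value. All its entries lie below 0, up to -3.54, and 496, none of them in the Hox windows, are -Inf. This deposited score, which the authors made from the pooled reads, per the labels, was used for ranking only. Both lists were read as BED, and positions are printed counted from 1. No read counts were used, so the depth behind a site or footprint is unknown and its number of footprints was not adjusted for it.

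Footprints were joined to sites by 1 bp of overlap. Predicted numbers are means per site in 50 width classes, or over up to 100 narrower and 100 wider sites. Tested on simulated data, the classes gave too high a ratio for Hoxa, and the second way was therefore added after the data were seen. The simulation let footprint number rise in proportion to width. In the list it rises faster, from a mean of 0.645 near 501 bp to 16.2 near 2004 bp, so the simulated error need not be that of the data. Bins of 200 kb began at the first site of each chromosome, Y left out. Named by rule were, per window, the 3 sites with the most footprints, the widest site, the strongest footprint and the longest stretch without a site. Other sites were named after their values were seen. The windows, member genes and measures were chosen with earlier results of these data known. With 1 library there is no replicate, and no test was made. Alternatives were other flanks, width classes, window edges, site widths and footprint strengths. A planned comparison of group 9 proteins was not made. Python 3.11.15, numpy 2.4.6, pandas 2.3.3 and scipy 1.17.1 were used.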

Additional observations from a re-analysis of the deposited data

How the results depend on the processing

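No paired analysis was possible because the sites and footprints of 1 library were each called once on pooled reads. Of 140 values under alternatives, 112 stayed within 1.5 times the value given (shares: within its Wilson interval), 25 moved further and 3 ratios crossed to the other side of 1. Taking sites fully inside the windows changed nothing, since no site crosses an edge, so 24 of the 112 could not differ. With the stronger 50% of footprints, footprints per site fell to 6.4 in Hoxa, 0.75 in Hoxb, 1.63 in Hoxc and 1.71 in Hoxd, and per kb of site to 5.48, 1.15, 2.78 and 2.08, as fewer footprints remain; the share of Hoxa sites with a footprint was 70%. With the wider 50% of sites, that share was 100% in Hoxa, 75% in Hoxb and 100% in Hoxc, sites per 100 kb were 3.20 in Hoxb and 1.90 in Hoxc, footprints per site 3.88 in Hoxb and 6.50 in Hoxc, and the density ratio to the flanks 0.346 in Hoxc and 1.76 in Hoxd. Trimming windows by 20 kb gave a share of 100% in Hoxa and a flank ratio of 0.856 in Hoxc. Without the 2 widest sites of each window, an alternative chosen after seeing the data, footprints per site were 7.11 in Hoxa, 1.14 in Hoxb and 1.17 in Hoxc, and per kb of site 2.35 in Hoxc. The ratio to width classes then reversed in 3 windows, from 1.55 to 0.954 in Hoxc, from 0.88 to 1.09 in Hoxb and from 0.826 to 1.14 in Hoxd. By nearest width the Hoxa ratio was 1.30. Flanks of 100 or 500 kb, joined footprints and 20 width classes moved no value past these limits. The few sites per window limit every share, and unknown depth limits any reading of footprint number.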

Other observations

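Promoter windows of the member genes (RefSeq, GRCm38.p6) were searched on both strands for 4 short motifs, none of which contains another. Of the 24 windows, 10 were from Hoxa, 10 from Hoxd, 3 from Hoxb and 1 from Hoxc. They belong to 22 genes, since Hoxa10 and Hoxd11 have 2 windows each. These were counted separately, and whether they overlap was not examined. CCAAT, the box bound by NF-Y, was found in 15 of 24 windows (62.5%), against 37.4% of all 32851 promoters of the same length. The window of Hoxa2, a gene of the hindbrain and neck arches, held 4 of them. The C/EBP motif TTGCNNAA was found in 5 of 24 (20.8%, against 10.8%), namely in 1 window of Hoxa10, in Hoxc4, in Hoxd12 and in both windows of Hoxd11. TGANTCA, the AP-1 motif, was found in 1 of 24 (4.17%, against 7.81%), a window of Hoxd11. The homeodomain core TAATTA was found in 2 of 24 (8.33%, against 5.29%). Both are windows of Hoxd11, so this share rests on 1 gene. A match is a stretch of letters in the reference and not a bound site. No member window was linked to a footprint.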
